A study of Mus musculus with 12 samples.

Results

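Alternative activation is the state of macrophages that respond to IL-4 and IL-13, cytokines of allergic and parasite responses that also accompany tissue repair. Both cytokines act through a receptor that contains the subunit IL-4Rα and phosphorylate STAT6, which in mouse macrophages turns on Arg1, Retnla, Chi3l3 and the lectin receptors Mrc1, Mgl2 and Clec10a. IL-10 limits inflammation and can raise the IL-4 receptor on macrophages, whereas Spp1 and Trem2 mark macrophages of injured or lipid-loaded tissue. In the lung, the product of Retnla is also known as hypoxia-induced mitogenic factor, and alternatively activated macrophages have been studied in the remodelling of hypoxic lung vessels.

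The genes described here are 10 rows of the deposited count files, chosen by their symbols Arg1, Retnla, Chi3l3, Il10, Il4ra, Mrc1, Mgl2, Clec10a, Spp1 and Trem2, out of 26608 gene rows. All 10 were found, and all 10 passed the filter on low counts that left 14254 genes for the tests. The libraries came from mouse lung cells sorted in pools of about 250 and sequenced as total RNA. Interstitial macrophages (IM), which lie in the lung tissue outside the air spaces, and nonclassical monocytes, which crawl along vessel walls and are called RM in the sample titles, were taken from C57Bl/6 animals of 2 genotypes. CrePos animals are labelled Hif1α Δ/Δ, with Cre expressed from Cx3cr1, and CreNeg animals are labelled Hif1α flox/lox and carry no Cre. Every animal, CreNeg included, had received SU5416, a blocker of VEGF receptors, each week during 3 weeks of hypoxia, an exposure used to model pulmonary hypertension, so no group shows the cells without it. Each of the 4 groups, IM CrePos, IM CreNeg, RM CrePos and RM CreNeg, holds 3 libraries, which are named by cell type and label number. The labels give neither age nor sex, and since CrePos animals alone carry Cre, the driver cannot be told apart from the loss of Hif1a. Whether each label number stands for 1 animal is not stated, so p-values measure the spread among libraries, which may be technical.

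Gene counts per library lay between 5332600 and 14099509, and 3 counts, taken as the upper limit where a gene had none, equalled 0.219 to 0.495 CPM, the count scaled to a common library size. Hif1a itself had 192, 204 and 200 CPM in IM CrePos against 231, 212 and 243 CPM in IM CreNeg, and 154, 212 and 150 CPM in RM CrePos against 246, 221 and 207 CPM in RM CreNeg. The IM CrePos libraries lay below the IM CreNeg libraries and the RM libraries overlapped, and the difference did not pass the test in either cell type (edgeR, BH-adjusted p = 0.938 in IM and 0.407 in RM). A count over the whole gene does not measure the excision of single exons. Cx3cr1, whose promoter drives Cre, averaged 199 ± 85.4 CPM in IM CrePos and 392 ± 66.2 CPM in IM CreNeg, and 123 ± 75.7 CPM in RM CrePos and 219 ± 72.7 CPM in RM CreNeg, and did not pass (edgeR, BH-adjusted p = 0.448 and 0.356). Of 19 interstitial macrophage markers tested, 13 were higher in IM than in RM within each genotype, and of 19 nonclassical monocyte markers, 14 were lower. Reads outside annotated exons made up 59.2 to 69.8% of exonic and non-exonic reads in IM CrePos, 38.5 to 44.2% in IM CreNeg, 55.1 to 72.7% in RM CrePos and 58.1 to 66.8% in RM CreNeg. In bulk libraries, fewer cells of a type and less RNA per cell cannot be told apart.

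The stretch around the start of transcription was read for 7 of the 10 genes in 8 windows, from RefSeq on build GRCm38.p6, each of 250 bases before the start and 50 after it. Each was searched on both strands for the STAT6-type motif TTCNNNNGAA and for the hypoxia response cores ACGTG and GCGTG. The 3 windows with a match are shown because STAT6 and HIF-1, the factors named by the pathway and by the deleted gene, are known to bind such motifs. The Retnla window (chr16:48842359-48842658, plus strand) holds a STAT6-type match in capitals, with its first base at -145 counted from the start. The Il4ra window (chr7:125552021-125552320, plus strand) holds GCGTG at -153 and at 38, and the Trem2 window (chr17:48346151-48346450, plus strand) holds the same core on the other strand, in capitals as CACGC, at -27.
Retnla: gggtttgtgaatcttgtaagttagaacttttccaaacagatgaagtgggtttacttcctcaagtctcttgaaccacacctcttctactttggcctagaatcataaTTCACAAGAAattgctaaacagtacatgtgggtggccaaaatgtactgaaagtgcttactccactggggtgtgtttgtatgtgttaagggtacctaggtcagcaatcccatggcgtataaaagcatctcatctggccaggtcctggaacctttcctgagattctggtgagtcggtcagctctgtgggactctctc
Il4ra: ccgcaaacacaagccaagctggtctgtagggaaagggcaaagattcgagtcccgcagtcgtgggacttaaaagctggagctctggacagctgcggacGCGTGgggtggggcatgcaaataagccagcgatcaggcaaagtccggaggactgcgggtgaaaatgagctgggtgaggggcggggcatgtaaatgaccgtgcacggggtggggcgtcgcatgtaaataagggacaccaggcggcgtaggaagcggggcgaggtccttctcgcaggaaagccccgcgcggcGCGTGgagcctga
Trem2: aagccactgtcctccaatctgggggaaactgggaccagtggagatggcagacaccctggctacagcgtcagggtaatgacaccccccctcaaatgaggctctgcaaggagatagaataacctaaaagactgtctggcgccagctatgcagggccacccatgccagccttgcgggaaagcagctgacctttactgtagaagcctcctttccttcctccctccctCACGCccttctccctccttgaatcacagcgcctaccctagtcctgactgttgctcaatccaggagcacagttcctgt
Of 32851 promoter windows of this length, 6.95% held TTCNNNNGAA, 19.6% held ACGTG and 32.4% held GCGTG, both strands counted. The windows of Chi3l3, Mrc1, Mgl2 and Spp1 held none of these letters, and those of Arg1, Il10 and Clec10a were not analysed here.

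Il4ra, at chr7:125552271-125579474 (GRCm38), is the receptor subunit shared by IL-4 and IL-13, and its levels in the 12 libraries lay closer together than those of the other genes. It had 283, 284 and 270 CPM in IM CrePos (libraries IM649, IM650 and IM661), against 317, 245 and 211 CPM in IM CreNeg (IM648, IM659 and IM660). In monocytes it had 122, 194 and 241 CPM in RM CrePos (RM649, RM650 and RM661), against 94.7, 130 and 164 CPM in RM CreNeg (RM648, RM657 and RM659). Every IM library lay above the RM libraries of its genotype, and the genotypes overlapped in both cell types. The annotated exons of Il4ra share 571 bases with a gene model on the opposite strand, and the strand setting of the count is not stated.

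Il10, at chr1:131019845-131024970, encodes the cytokine that restrains inflammatory macrophages. It had 66.9, 47.4 and 63.2 CPM in IM CrePos, against 96.5, 49.1 and 24.2 CPM in IM CreNeg. In monocytes it had 3.30, 0.588 and 1.33 CPM in RM CrePos, against 12.2, 8.81 and 10.8 CPM in RM CreNeg. The genotypes overlapped in macrophages, while every RM CrePos library lay below every RM CreNeg library.

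Among the secreted products, Chi3l3 (Chil3 in RefSeq, chr3:106147554-106167564) encodes Ym1, a chitinase-like lectin without chitinase activity. It had 1022.5, 585 and 355 CPM in IM CrePos, against 1189.5, 1292 and 1257 CPM in IM CreNeg. In monocytes it had 95.2, 163 and 106 CPM in RM CrePos, against 56.2, 124 and 107 CPM in RM CreNeg. The IM CreNeg libraries were close together, and the IM CrePos libraries were all lower and farther apart.

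Retnla, at chr16:48842609-48844461, encodes the resistin-like molecule RELMα. It had 30.4, 12.2 and 35.9 CPM in IM CrePos, against 14.2, 17.7 and 61.4 CPM in IM CreNeg. It had 4.62, 0 and 6.66 CPM in RM CrePos, against 0.738, 9.42 and 10.1 CPM in RM CreNeg. The genotypes overlapped in both cell types, and IM660 stood above the other IM CreNeg libraries.

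Arg1, at chr10:24915207-24927470, encodes the enzyme that splits arginine into ornithine and urea, the best known product of alternative activation in mouse. Its levels were low, with 7.91, 2.24 and 2.44 CPM in IM CrePos against 9.49, 1.70 and 1.84 CPM in IM CreNeg. It had 0, 0 and 1.33 CPM in RM CrePos, against 0, 3.18 and 6.67 CPM in RM CreNeg. In all it rested on 100 and 176 counts in the IM CrePos and IM CreNeg groups and on 15 and 81 counts in RM CrePos and RM CreNeg.

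Spp1, at chr5:104435111-104441053, encodes osteopontin, a secreted ligand of integrins and CD44. It had 81.9, 28.3 and 49.5 CPM in IM CrePos, against 111, 113 and 86.0 CPM in IM CreNeg, with no overlap. It had 6.93, 0 and 16.0 CPM in RM CrePos, against 6.20, 18.2 and 26.8 CPM in RM CreNeg, with overlap. Its annotated exons share 309 bases with another gene model on the same strand, and that model is not a row of the files.

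Among the lectin receptors, Mrc1 (chr2:14229414-14332023), the mannose receptor CD206 that takes up glycoproteins, had the most counts of the 10 genes in every IM library. It had 2494, 2089 and 1434 CPM in IM CrePos, against 1790, 1915 and 2118 CPM in IM CreNeg. It had 78.4, 54.4 and 74.4 CPM in RM CrePos, against 31.7, 139 and 183 CPM in RM CreNeg. The cell types were far apart and the genotypes overlapped within each.

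Mgl2 (chr11:70130125-70137542) and Clec10a (chr11:70166623-70170836) are neighbouring genes for galactose-binding lectins, CD301b and CD301a in mouse, whose close similarity makes the split of shared reads between them uncertain. Mgl2 had 86.0, 94.7 and 188 CPM in IM CrePos, against 238, 210 and 293 CPM in IM CreNeg, and the genotypes did not overlap. It had 0, 0 and 4.26 CPM in RM CrePos, against 0, 8.81 and 9.95 CPM in RM CreNeg. Clec10a had 15.5, 8.55 and 15.6 CPM in IM CrePos against 7.08, 22.3 and 40.3 CPM in IM CreNeg, and 0, 3.97 and 3.46 CPM in RM CrePos against 0, 16.8 and 4.61 CPM in RM CreNeg. Its genotypes overlapped in both cell types.

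Trem2, at chr17:48346401-48352276, encodes a receptor for lipids and lipoproteins that signals through Tyrobp. It had 23.9, 22.0 and 48.9 CPM in IM CrePos, against 68.9, 63.2 and 74.4 CPM in IM CreNeg. It had 0, 1.18 and 0.976 CPM in RM CrePos, against 1.48, 8.32 and 9.82 CPM in RM CreNeg. In both cell types every CrePos library was below every CreNeg library.

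**Figure D1:**
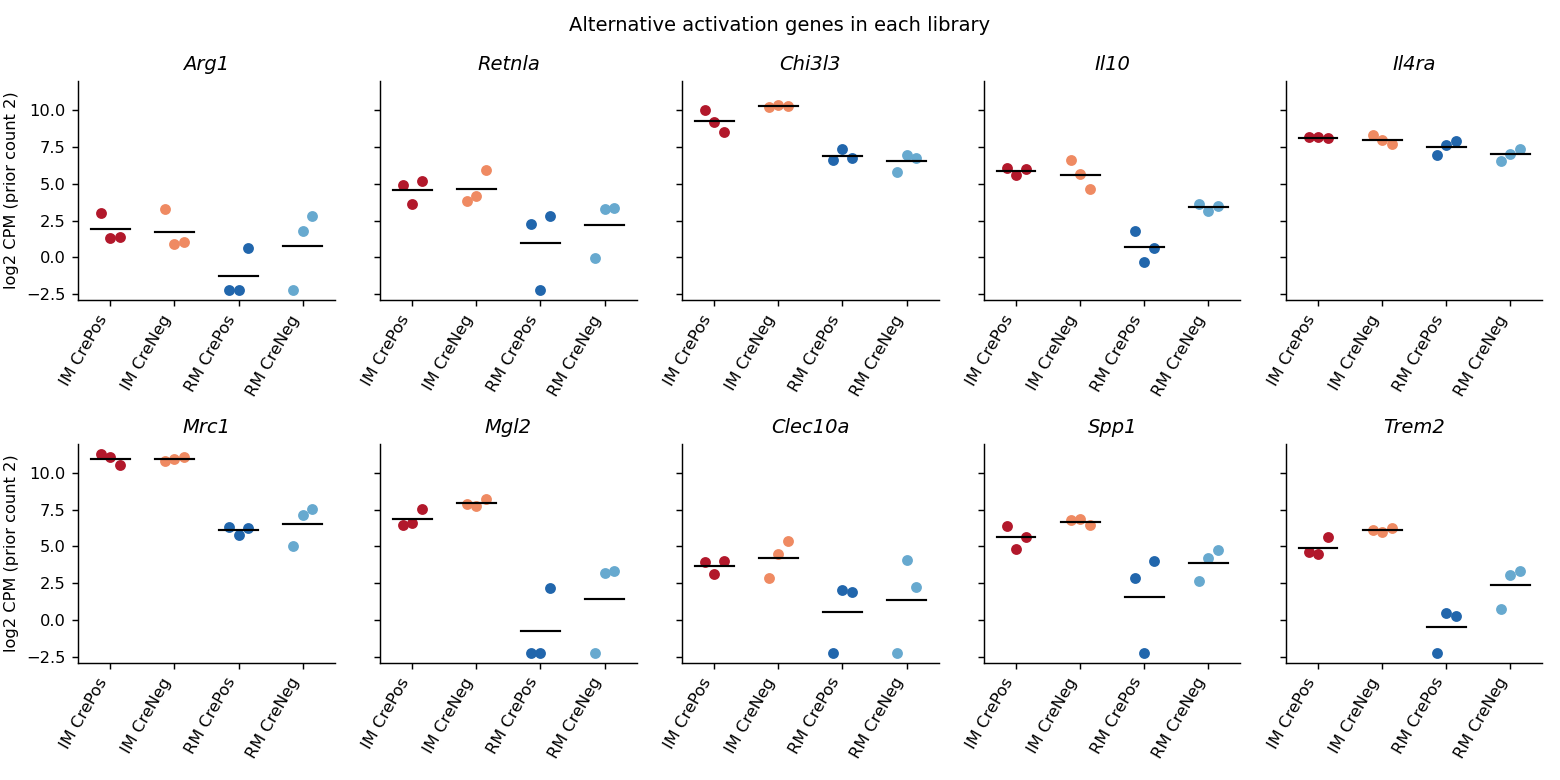
Log2 CPM (prior count 2) of the 10 genes in each of 12 libraries, by group, with a bar at the mean of 3 libraries. Mrc1 and Chi3l3 lie highest in interstitial macrophages, and Mrc1, Mgl2 and Trem2 show wide gaps between IM and RM libraries. Mgl2 has no count in RM648, RM649 and RM650, and Trem2 has none in RM649.

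Summed over the 10 genes, the level was 4112, 3174 and 2462 CPM in IM CrePos and 3842, 3929 and 4167 CPM in IM CreNeg. The sum was 310, 417 and 455 CPM in RM CrePos and 203, 466 and 533 CPM in RM CreNeg. RM648 was the lowest RM CreNeg library for 9 of the 10 genes and the highest for Il10. The summed level of 11 classical monocyte markers, Chi3l3 left out, moved with it, at 353 CPM in RM648 against 5972 CPM in RM657 and 2981 CPM in RM659. RM648 was also the lowest RM CreNeg library for interstitial macrophage (3468 CPM), dendritic cell, eosinophil and mast cell, endothelial, epithelial, fibroblast and smooth muscle, and lymphoid markers. It was the highest for nonclassical monocyte (18610 CPM) and alveolar macrophage markers (1271 CPM). The part of these markers in the levels of the 10 genes was not tested. No count of Arg1, Mgl2, Clec10a or Trem2 was found in RM649, of Arg1, Retnla, Mgl2 or Spp1 in RM650, or of Arg1, Mgl2 or Clec10a in RM648, which allows up to 0.495, 0.441 and 0.443 CPM in those 3 libraries.

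Levels of different genes were set on a scale of mean CPM per kilobase of exon. All annotated exons of a gene were joined for its length, which gave 4946 bases for Trem2, and the annotation behind the counts is not stated. A transcript shorter than the joined exons has its level understated, so ranks between genes are approximate. On this scale Chi3l3 ranked first of the 10 in all 4 groups. Its level was 401 ± 208 in IM CrePos, 764 ± 31.9 in IM CreNeg, 74.3 ± 22.2 in RM CrePos and 58.7 ± 21.6 in RM CreNeg (CPM per kilobase, SD, n = 3). Mrc1 was second in macrophages, at 315 ± 83.9 in IM CrePos and 305 ± 26.0 in IM CreNeg, followed by Mgl2 at 58.6 ± 26.9 and 118 ± 20.1 on the same scale. In IM CrePos Mgl2 did not differ beyond its spread from Il4ra, Il10 or Retnla, and the levels of Chi3l3 and Mrc1 did not differ beyond their spread. Il4ra took second place in monocytes, at 30.9 in RM CrePos and 21.6 in RM CreNeg, ahead of Mrc1 at 10.8 ± 2.02 and 18.5 ± 12.2 CPM per kilobase, and in RM CreNeg these did not differ beyond their spread. In IM CrePos Il4ra, Il10, Retnla and Spp1 lay between 32.3 and 46.5 CPM per kilobase, in an order within their spread. In IM CreNeg Spp1 stood at 62.8 ± 9.19, above Il4ra at 42.9 ± 8.99 by more than their SDs, with Retnla and Il10 between them. Arg1 was last in macrophages, at 1.88 ± 1.45 in IM CrePos and 1.95 ± 2.0 in IM CreNeg. It did not differ beyond its spread from Clec10a, at 4.55 ± 1.39 in IM CrePos and 8.01 ± 5.74 in IM CreNeg. In monocytes Trem2 was last, at 0.145 ± 0.127 in RM CrePos and 1.32 ± 0.900 in RM CreNeg, and did not differ beyond its spread from Arg1.

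Interstitial macrophages held more Chi3l3, Il10, Mrc1, Mgl2 and Trem2 transcript than nonclassical monocytes of the same genotype. In CrePos cells 5 of the 10 genes were higher in IM, where 3.22% of all 14254 genes tested were higher and 4.57% passed in either direction (edgeR quasi-likelihood test, Benjamini-Hochberg adjusted p under 0.05). In CreNeg cells 6 of 10 were higher, against 2.81% of all genes higher and 7.48% passing in either direction. No gene of the 10 was lower in either comparison, and the median log2 fold change of the 10 was 2.96 in CrePos and 2.50 in CreNeg cells, against 0.14 and 0.06 for all genes tested. Every IM CrePos library exceeded every RM CrePos library for all 10 genes, as it did for 16% of all genes, and the same held in CreNeg cells for 8 of 10, against 18.6% of all genes. Arg1 and Clec10a were the exceptions in CreNeg cells.

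Mrc1 was 29.1-fold higher in IM CrePos than in RM CrePos (log2 fold change 4.86 ± 0.50 SE, edgeR, BH-adjusted p = 6.604e-05). In CreNeg cells it was 16.5-fold higher (4.04 ± 0.48, edgeR, BH-adjusted p = 0.000264). Chi3l3 was 5.40-fold higher in IM CrePos (2.43 ± 0.38, edgeR, BH-adjusted p = 0.00129) and higher in IM CreNeg by 3.70 ± 0.40 on the log2 scale (edgeR, BH-adjusted p = 0.000121). These were the 2 genes of the 10 that passed in both genotypes whichever library was left out.

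Il10 was 34.3-fold higher in IM CrePos than in RM CrePos (log2 fold change 5.10 ± 0.68 SE, edgeR, BH-adjusted p = 0.000427) and 5.33-fold higher in IM CreNeg than in RM CreNeg (2.41 ± 0.59, edgeR, BH-adjusted p = 0.0202). Trem2 was 41.7-fold higher in CrePos cells (5.38 ± 0.89, edgeR, BH-adjusted p = 0.00188) and 10.5-fold higher in CreNeg cells (3.39 ± 0.78, edgeR, BH-adjusted p = 0.0144). Mgl2, a gene also found in dendritic cells, was 75.3-fold higher in CrePos cells (6.23 ± 1.26, edgeR, BH-adjusted p = 0.00984) and 39.1-fold higher in CreNeg cells (5.29 ± 1.18, edgeR, BH-adjusted p = 0.0135). The summed level of 16 dendritic cell markers outside the 10 genes lay between 330 and 627 CPM in IM CrePos, 312 and 391 CPM in IM CreNeg, 337 and 1167 CPM in RM CrePos and 132 and 386 CPM in RM CreNeg and overlapped between the cell types in each genotype. Its part in the result was not tested.

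Il4ra was 1.99-fold higher in IM CreNeg than in RM CreNeg (log2 fold change 0.99 ± 0.28 SE, edgeR, BH-adjusted p = 0.0455), the smallest of the called differences. In CrePos cells it was 0.59 ± 0.28 on the log2 scale and did not pass (edgeR, BH-adjusted p = 0.339). Spp1 did not pass in either, at 2.78 ± 0.95 in CrePos and 2.60 ± 0.93 in CreNeg cells (edgeR, BH-adjusted p = 0.133 and 0.116), although DESeq2 called it in both. Retnla was at 2.79 ± 1.17 in CrePos and 2.20 ± 1.14 in CreNeg cells, Clec10a at 2.40 ± 1.40 and 1.70 ± 1.36, and Arg1 at 3.13 ± 1.90 and 0.40 ± 1.74, none of which passed (edgeR, BH-adjusted p between 0.247 and 0.952).

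**Figure D2:**
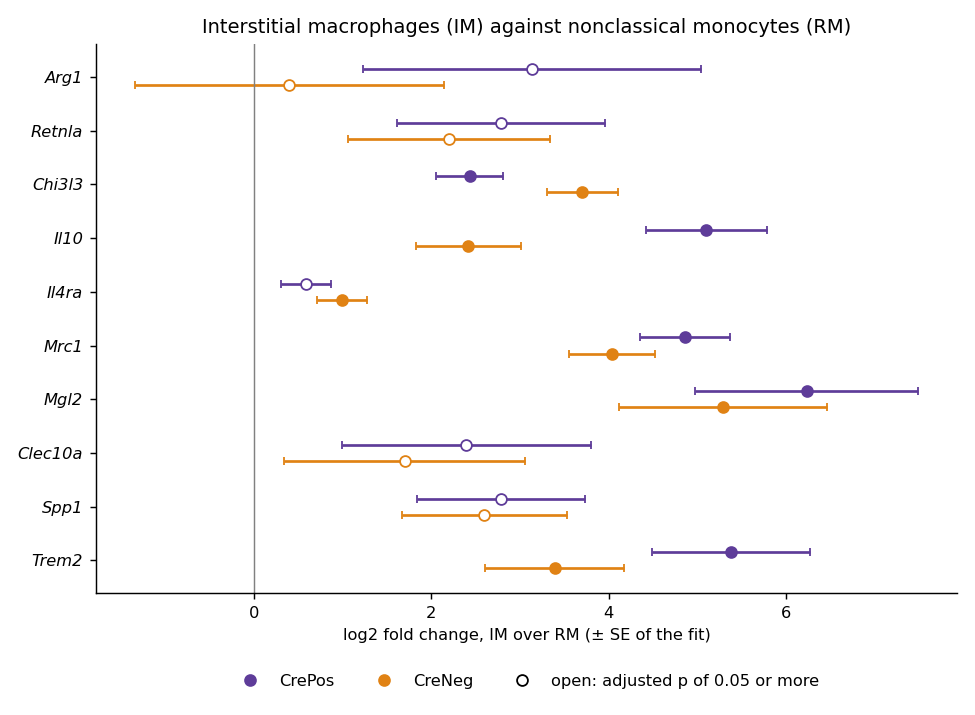
Log2 fold change of IM over RM for each of the 10 genes in CrePos cells (purple) and CreNeg cells (orange), with bars of ± 1 SE of the fit and open circles where the adjusted p is 0.05 or more. All 20 points lie right of 0, from 0.40 for Arg1 in CreNeg cells to 6.23 for Mgl2 in CrePos cells.

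Several of the calls in CreNeg cells depended on single libraries. Without IM648 the calls were Chi3l3 and Mrc1 alone, and BH-adjusted p from edgeR was 0.165 for Il10, 0.0535 for Trem2, 0.0661 for Mgl2 and 0.209 for Il4ra. Trem2 was also lost without IM660 (0.0528), and Mgl2 without IM659 (0.0591), IM660 (0.0763) or RM659 (0.0518). Il10 was lost without RM648 (0.0669), RM657 (0.0822) or RM659 (0.0612). Il4ra was lost without any of 7 libraries, the others being IM649, IM650, IM659, IM660, RM648 and RM657, with the adjusted p between 0.0661 and 0.213. In CrePos cells, Mgl2 was lost without IM661 (edgeR, BH-adjusted p = 0.0610), while its log2 fold change was 13.11 without RM661, the only RM CrePos library with a count, a value that is no bound, and that of Il10 was 5.87 without RM649. Without the filter on low counts Mgl2 passed in neither genotype (edgeR, BH-adjusted p = 0.102 in CrePos and 0.104 in CreNeg cells). With only the 6 libraries compared Trem2 was lost in CrePos cells (0.0556).

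IM libraries were run on lanes 5 and 7 and RM libraries on lanes 6 and 8, so lane and cell type cannot be told apart. The share of non-exonic reads moved with the cell type in CreNeg cells, and with that share as a covariate Chi3l3 alone of the 10 passed in CreNeg cells, while the same 5 genes passed in CrePos cells. The log2 fold change in CreNeg cells was then 3.61 for Mrc1 and 2.78 for Il10, against 4.04 and 2.41 without the covariate. It was 1.78 for Trem2, 1.26 for Mgl2 and 0.37 for Il4ra, against 3.39, 5.29 and 0.99. The share did not overlap between IM CreNeg and RM CreNeg, so this fit cannot tell it apart from the cell type there. Alveolar macrophages are known to express Chi3l3. The sum of 16 of their markers other than the members lay between 876 and 1516 CPM in IM CrePos and 499 and 998 CPM in RM CrePos, with overlap. It lay between 1419 and 1786 CPM in IM CreNeg and 853 and 1271 CPM in RM CreNeg, without overlap. Of 18 such markers tested, Chi3l3 and Mrc1 included, 17 had log2 fold changes above 0 in CrePos cells and 16 in CreNeg cells. Their part in the result was not tested. Endothelial markers summed to 1484 to 5468 CPM in IM CrePos and 5697 to 13460 CPM in RM CrePos, with 18 of 19 log2 fold changes below 0, and epithelial markers to 240 to 2258 CPM in IM CrePos and 1862 to 2813 CPM in RM CrePos, with 13 of 13 below 0. The part of these markers was not tested either. The sum of 12 eosinophil and mast cell markers reached at most 6.21 CPM in IM CrePos and 8.03 CPM in IM CreNeg. In monocytes it reached at most 17.8 CPM in RM CrePos and 62.0 CPM in RM CreNeg. The last value was that of RM657, against 0 CPM in RM648 and 10.2 CPM in RM659. No count was found for 8 of the 12 in IM CrePos, 7 in IM CreNeg, 9 in RM CrePos and 7 in RM CreNeg. Epx and Prg2 were among these in every group, while Ccr3, Alox15, Cpa3, Ms4a2 and Il5ra had counts in RM CreNeg.

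None of the 10 genes passed the test between the genotypes in macrophages. Between IM CrePos and IM CreNeg, 0 of 10 passed, against 0.288% of all genes tested (edgeR, BH-adjusted p under 0.05). Chi3l3 alone had an unadjusted p under 0.05, as 9.84% of all genes did, and DESeq2 called none. Log2 fold changes were below 0 for 7 of the 10, with a median of -0.53 against 0.07 for all genes. In 4 genes, Chi3l3, Mgl2, Spp1 and Trem2, every IM CrePos library lay below every IM CreNeg library, which was so for 13.4% of all genes tested.

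Chi3l3 averaged 654 ± 339 CPM in IM CrePos and 1246 ± 52.0 CPM in IM CreNeg (SD, n = 3). Its log2 fold change was -0.93 ± 0.36 SE (edgeR quasi-likelihood test, BH-adjusted p = 0.362). Within lane 5, with 1 CrePos and 2 CreNeg libraries, the ratio of CrePos to CreNeg was 0.459, and within lane 7, with 2 and 1, it was 0.579. Trem2 had a mean of 31.6 CPM in IM CrePos and 68.8 CPM in IM CreNeg, a log2 fold change of -1.12 ± 0.72 (edgeR, BH-adjusted p = 0.722), with ratios of 0.319 and 0.528 in lanes 5 and 7.

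Spp1 averaged 53.2 ± 27.0 CPM in IM CrePos and 103 ± 15.2 CPM in IM CreNeg (-0.96 ± 0.88, edgeR, BH-adjusted p = 0.899), with lane ratios of 0.284 and 0.591. Mgl2 averaged 123 ± 56.4 CPM in IM CrePos and 247 ± 42.2 CPM in IM CreNeg (-1.01 ± 0.98, edgeR, BH-adjusted p = 0.913), with lane ratios of 0.377 and 0.574. For these 4 genes a ratio below 1 in each lane follows from the lack of overlap and adds no support, and none passed the test.

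The other 6 genes overlapped between the genotypes in macrophages. Mrc1 averaged 2006 ± 535 CPM in IM CrePos and 1941 ± 166 CPM in IM CreNeg (log2 fold change 0.05 ± 0.43 SE), Il4ra 279 ± 7.97 and 257 ± 54.0 CPM (0.12 ± 0.28), and Il10 59.2 ± 10.4 and 56.6 ± 36.7 CPM (0.06 ± 0.56). Retnla was at -0.25 ± 1.09, Clec10a at -0.82 ± 1.33 and Arg1 at -0.05 ± 1.74 on the log2 scale, and none passed.

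Cell type markers, non-exonic reads and nuclear RNAs in the macrophage libraries moved with the genotype. The sum of 19 interstitial macrophage markers lay between 10060 and 12180 CPM in IM CrePos and between 16190 and 16940 CPM in IM CreNeg, and 16 of the 19 had log2 fold changes below 0, with a median of -0.64. Apoe made up the largest part of this sum in both groups. Apoe and Cd63 are also counted among the genes of lipid-associated macrophages below. Cx3cr1, the driver gene, and Csf1r are both in this list and in that of nonclassical monocyte markers. The share of non-exonic reads was 65.2 ± 5.48% in IM CrePos and 42.0 ± 3.06% in IM CreNeg (SD, n = 3), without overlap, and 3 of 8 nuclear RNAs tested were higher in IM CrePos. With the non-exonic share as a covariate, 8 of the 10 genes had log2 fold changes above 0 and none passed. The sign seen above for Mgl2, Spp1 and Trem2 turned, to 4.36, 1.83 and 0.88, while Chi3l3 stayed below 0. Since the share did not overlap between the genotypes in IM, this fit cannot tell it apart from the genotype, and no conclusion is drawn from it. Nonclassical monocyte markers summed to 2667 to 3753 CPM in IM CrePos and 4196 to 4508 CPM in IM CreNeg, without overlap. Of 18 alveolar macrophage markers, which here include Chi3l3 and Mrc1 themselves, 16 had log2 fold changes below 0, with a median of -0.57. The part of these cell markers in the levels of the 10 genes was not tested.

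**Figure D3:**
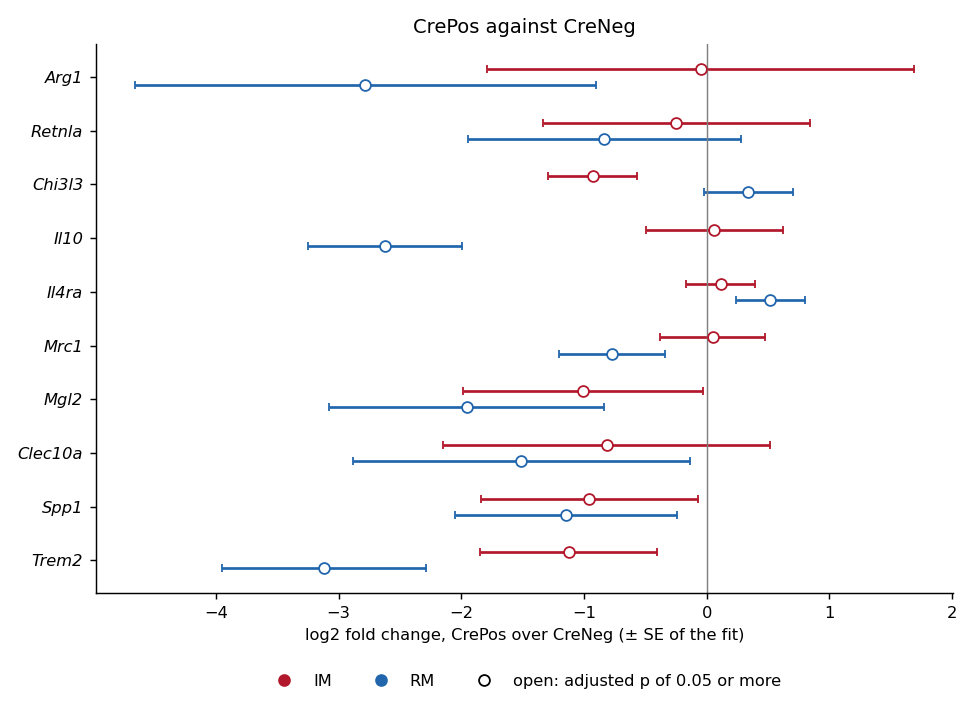
Log2 fold change of CrePos over CreNeg for each of the 10 genes in IM (red) and RM (blue), with bars of ± 1 SE of the fit. All circles are open, which marks an adjusted p of 0.05 or more, and Il10 and Trem2 in RM lie farthest from 0 in units of their SE.

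In monocytes, too, none of the 10 genes passed the main test between the genotypes. Between RM CrePos and RM CreNeg, 0 of 10 passed, against 0.421% of all genes tested (edgeR, BH-adjusted p under 0.05). Il10 and Trem2 had an unadjusted p under 0.05, as 16.1% of all genes did. DESeq2 called both lower, where it called 1093 genes in all, against 60 in the main test. Log2 fold changes were below 0 for 8 of the 10, with a median of -1.33 against -0.10 for all genes. Il10 and Trem2 were also the 2 genes whose RM CrePos libraries all lay below the RM CreNeg libraries, as 11.4% of all genes tested did.

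Il10 averaged 1.74 ± 1.40 CPM in RM CrePos and 10.6 ± 1.73 CPM in RM CreNeg (SD, n = 3), resting on 39 and 244 counts. Its log2 fold change was -2.62 ± 0.63 SE (edgeR, BH-adjusted p = 0.0579), and DESeq2 gave an adjusted p of 0.00359. Within lane 6, with 1 CrePos and 2 CreNeg libraries, the ratio of CrePos to CreNeg was 0.060, and within lane 8, with 2 and 1, it was 0.189. For Il10 and Trem2 lane ratios below 1 follow from the lack of overlap and add no support. Without RM649 the log2 fold change of Il10 was -3.40 and passed (edgeR, BH-adjusted p = 0.0375). Il10 also passed without the filter on low counts (edgeR, BH-adjusted p = 0.04505). It did not pass with RLE factors, a minimum count of 30, the 6 RM libraries alone, lane, the non-exonic share or the replicate block in limma. Over the alternative fits to all RM libraries, its log2 fold change lay between -3.105 and -2.465.

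Trem2 averaged 0.717 ± 0.629 CPM in RM CrePos and 6.54 ± 4.45 CPM in RM CreNeg, on 19 and 159 counts. Its log2 fold change was -3.12 ± 0.83 SE (edgeR, BH-adjusted p = 0.0854), DESeq2 gave an adjusted p of 0.00495, and the ratios in lanes 6 and 8 were 0.130 and 0.331. No fit with edgeR or limma called Trem2. Over the alternative fits to all RM libraries, its log2 fold change lay between -3.44 and -2.207. Mrc1 averaged 69.0 ± 12.9 CPM in RM CrePos and 118 ± 77.8 CPM in RM CreNeg, and its lane ratios lay on opposite sides of 1, at 0.338 in lane 6 and 2.41 in lane 8. Chi3l3 and Il4ra were the 2 genes with log2 fold changes above 0, at 0.34 ± 0.36 and 0.52 ± 0.28, and neither passed (edgeR, BH-adjusted p = 0.690 and 0.390). Retnla, Clec10a, Spp1, Mgl2 and Arg1 lay between -0.83 ± 1.11 for Retnla and -2.78 ± 1.88 for Arg1, and none passed. RM661 held the only counts of Arg1 and Mgl2 in RM CrePos, and without it their fitted values, which are no bounds, were -7.89 and -8.83, that of Spp1 was -2.32 and that of Retnla -1.56. Without RM657 the value of Clec10a was 0.10.

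Cell type markers moved with the genotype in the monocyte libraries as well. The sum of 19 endothelial markers was 6650, 5697 and 13460 CPM in RM CrePos, with the highest value in RM661, and 1312, 2579 and 4618 CPM in RM CreNeg, and 18 of the 19 had log2 fold changes above 0, with a median of 1.79. The sum of 19 nonclassical monocyte markers lay between 4521 and 9918 CPM in RM CrePos and between 11480 and 18610 CPM in RM CreNeg, with all 19 below 0 and a median log2 fold change of -0.97. Interstitial macrophage markers summed to 1168 to 2371 CPM in RM CrePos and 3468 to 4539 CPM in RM CreNeg, with 17 of 19 below 0. These sums did not overlap between the genotypes, and their part in the lower levels of Il10 and Trem2 was not tested.

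**Figure D4:**
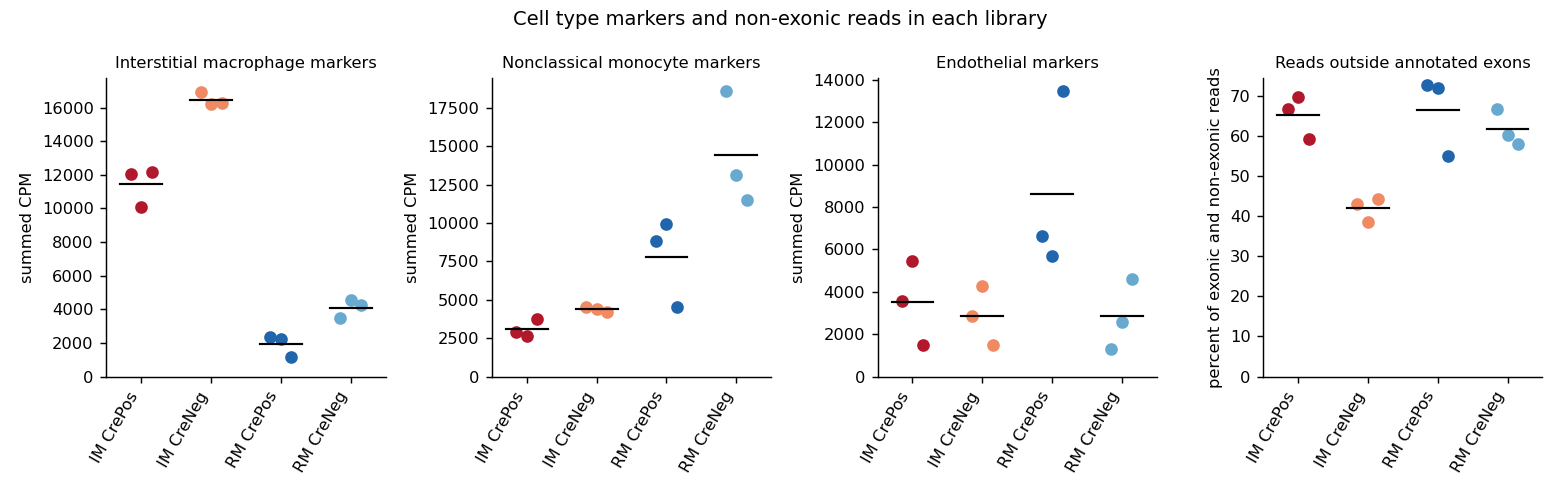
Summed CPM of 19 interstitial macrophage, 19 nonclassical monocyte and 19 endothelial markers, and the percentage of reads outside annotated exons, in each library with the mean of each group. Macrophage markers lie lower in CrePos than in CreNeg libraries of either cell type, and endothelial markers are highest in RM661 at 13460 CPM.

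The effect of the genotype on the 10 genes was also compared between the cell types. The difference of the CrePos effects (IM minus RM) passed for 0 of 10 genes and for 0% of all 14254 genes tested (edgeR, BH-adjusted p under 0.05). DESeq2 called none of the 10, and Il10 and Chi3l3 had an unadjusted p under 0.05, as 8.92% of all genes did. The difference was 2.69 ± 0.83 on the log2 scale for Il10 (edgeR, BH-adjusted p = 0.410) and -1.27 ± 0.51 for Chi3l3 (edgeR, BH-adjusted p = 0.513). It was above 0 for 8 of the 10 genes, with a median of 0.76 against 0.20 for all genes.

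The pathway around the 10 genes was followed with 9 lists of 130 genes, of which 116 were tested. Signals and receptors came first. Il4 had no count in either CrePos group, and its 43 counts in IM CreNeg and 10 in RM CreNeg came from 1 library each, IM659 and RM657. Il13 had 7 counts in RM CrePos, all in RM661, and 63 in RM CreNeg, all in RM657, and none in macrophages. The eosinophil and mast cell markers above summed to 62.0 CPM in RM657, 3.28 CPM in RM661 and 0.369 CPM in IM659. The source of the Il4 and Il13 counts was not tested. Il13ra2, the decoy receptor of IL-13, had none in any library. Of 7 tested ligands and receptors, Il10rb, the second chain of the IL-10 receptor, was higher in IM than in RM in both genotypes, at 178 ± 18.1 CPM in IM CrePos against 48.7 ± 12.7 CPM in RM CrePos and 236 ± 30.7 CPM in IM CreNeg against 78.7 ± 16.7 CPM in RM CreNeg (edgeR, BH-adjusted p = 0.000810 and 0.00226). Il2rg, the common γ chain of type I IL-4 receptors, was lower in IM CreNeg, at 40.8 ± 4.77 CPM against 101 ± 24.4 CPM in RM CreNeg (edgeR, BH-adjusted p = 0.0430), and was lost without any one of 8 libraries, all but RM649, RM650, RM661 and RM659 (adjusted p 0.0623 to 0.182).

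Stat6, which carries the signal of IL-4 and IL-13, had 206 CPM in IM CrePos, 214 CPM in IM CreNeg, 209 CPM in RM CrePos and 358 CPM in RM CreNeg on average, and passed in no comparison. Of the 14 kinases, STATs and feedback genes, Irs2, an adaptor of the IL-4 receptor, was 4.95-fold higher in IM CrePos than in RM CrePos, and Bcl3, a cofactor of NF-kB, 2.86-fold higher (edgeR, BH-adjusted p = 0.000531 and 0.0495). In CreNeg cells Socs3, a feedback inhibitor of cytokine receptors, was 2.59-fold higher in IM, and Stat3, which carries the signal of IL-10, was 2.02-fold lower in IM (edgeR, BH-adjusted p = 0.0150 and 0.0204). In all, 2 of 14 were higher in IM in CrePos cells, and 2 higher and 2 lower in CreNeg cells. Bcl3 was lost without any one of 11 libraries, all but RM661 (adjusted p 0.0557 to 0.326), Socs3 without IM648, RM648 or RM657 (0.0557 to 0.0756), and Stat3 without IM648, IM659, IM660, RM648 or RM657 (0.0515 to 0.125).

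Of 16 transcription factors of alternative activation, 5 were higher and 2 lower in IM CrePos than in RM CrePos, and 3 were higher and 3 lower in IM CreNeg than in RM CreNeg. Egr2, which is induced by IL-4, was 7.30-fold higher in IM CreNeg, and Batf, a partner of AP-1 factors, 22.9-fold higher in IM CrePos (edgeR, BH-adjusted p = 0.000798 and 0.00249). Without RM661 the log2 fold change of Batf was 5.36, against 4.52 with it. In arginine and polyamine metabolism, 2 of 12 genes were higher in IM CrePos, and 1 was higher and 1 lower in IM CreNeg.

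Gatm, which makes the creatine precursor from arginine, was 125-fold higher in IM CrePos, where RM CrePos held 10 counts in all, and 16.3-fold higher in IM CreNeg (edgeR, BH-adjusted p = 0.000465 and 0.00471). In CrePos cells its log2 fold change of 6.96 became 9.04 without RM661 and 6.15 without IM661. Odc1, the ornithine decarboxylase that starts polyamine synthesis, was 2.67-fold higher in IM CrePos, and Sat1, which acetylates polyamines for their breakdown, 2.86-fold lower in IM CreNeg (edgeR, BH-adjusted p = 0.0165 and 0.00664). Odc1 was lost without IM649, IM650 or IM661 (adjusted p 0.0505 to 0.0941) and Sat1 without IM659 (0.0573). Arg2, the mitochondrial arginase, passed in no comparison, at 4.63 ± 1.26 CPM in IM CrePos, 1.89 ± 0.467 CPM in IM CreNeg, 22.7 ± 39.1 CPM in RM CrePos and 5.32 ± 4.21 CPM in RM CreNeg.

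Relatives of Chi3l3 and Retnla were scarce. Only 2 of 7 in the files were tested and none passed, Chi3l1 being at 42.6 ± 32.7 CPM in IM CrePos and 44.0 ± 17.2 CPM in IM CreNeg. Chi3l4, the nearest copy of Chi3l3 on which reads could be split, had 54 counts in IM CreNeg, 52 of them in IM659, and none elsewhere, and Chit1 and Retnlb had none in any library. Of 14 other lectin and scavenger receptors, 5 were higher and 1 lower in IM CrePos, and 4 higher and 1 lower in IM CreNeg. Stab1, a scavenger receptor, was 31.9-fold higher in IM CrePos and 16.7-fold higher in IM CreNeg, and Clec4n, the fungal sensor dectin-2, 11.0-fold and 9.14-fold higher (edgeR, BH-adjusted p between 0.000999 and 0.00425). Without RM650 the log2 fold change of Clec4n in CrePos cells was 4.46, against 3.46 with it. Cd209b, Cd209f and Cd209g, relatives of DC-SIGN, had no count in any RM library. Against a limit of 3 counts over the RM group, Cd209f was at least 71.8-fold higher in IM CrePos and at least 96.3-fold higher in IM CreNeg, and Cd209b at least 57.6-fold higher in IM CreNeg (edgeR, BH-adjusted p = 0.0190, 0.0116 and 0.0234). Cd209b did not pass in CrePos cells (0.0502) and Cd209g in neither genotype (0.148 in CrePos and 0.0795 in CreNeg cells).

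Of 19 partners of Trem2 and genes of lipid-associated macrophages, 5 were higher and 1 lower in IM CrePos than in RM CrePos, and 7 higher and 2 lower in IM CreNeg than in RM CreNeg. Apoe, a ligand of TREM2, reached 6490 ± 806 CPM in IM CrePos against 613 ± 309 CPM in RM CrePos, and 9341 ± 454 CPM in IM CreNeg against 1699 ± 315 CPM in RM CreNeg (edgeR, BH-adjusted p = 6.604e-05 and 0.000568). Cd63, a protein of lysosomes, was 10.1-fold higher in IM CrePos and 8.18-fold higher in IM CreNeg (edgeR, BH-adjusted p = 8.473e-05 and 0.000210). Tyrobp, the adaptor through which TREM2 signals, did not follow Trem2 between the cell types. It had 71.4 ± 12.7 CPM in IM CrePos, 151 ± 6.63 CPM in IM CreNeg, 82.4 ± 65.4 CPM in RM CrePos and 174 ± 50.7 CPM in RM CreNeg. Its mean was lower in CrePos than in CreNeg in both cell types, as that of Trem2 was, and it passed in no comparison. Of 12 receptors and processing genes of osteopontin, 1 was higher and 2 lower in IM CrePos, and 2 higher and 2 lower in IM CreNeg. Itga4, an integrin chain that binds osteopontin, was lower in IM in both genotypes, 4.41-fold in CrePos and 10.2-fold in CreNeg cells, and Tgm2, which crosslinks it, 2.91-fold and 5.08-fold (edgeR, BH-adjusted p between 0.000518 and 0.00887).

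Of 20 other products of alternative activation, 8 were higher in IM CrePos than in RM CrePos and 8 in IM CreNeg than in RM CreNeg, and none was lower in either. Igf1, a growth factor of repair macrophages, had 275 ± 52.4 CPM in IM CrePos against 2.75 ± 2.50 CPM in RM CrePos (edgeR, BH-adjusted p = 0.000771), and its log2 fold change of 6.57 became 7.30 without RM661. Tgfbi, a matrix protein induced by TGF-β, was 9.62-fold higher in IM CrePos and 5.14-fold higher in IM CreNeg, and Mmp14, a membrane protease, was 13.1-fold higher in IM CreNeg (edgeR, BH-adjusted p = 4.988e-05, 0.000438 and 0.000355). Over all 9 lists, 29 of 116 genes were higher and 6 lower in IM CrePos than in RM CrePos, and 28 were higher and 12 lower in IM CreNeg than in RM CreNeg. Of all genes tested, 3.22% were higher and 4.57% passed in either direction in CrePos cells, and 2.81% and 7.48% in CreNeg cells. The counts of pathway genes were 22 in all in CrePos cells without IM661, and 21, 26, 25 and 25 in CreNeg cells without IM648, IM659, IM660 and RM648.

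Between the genotypes, 0 of the 116 pathway genes passed in macrophages (edgeR), where 0.288% of all genes passed. An unadjusted p under 0.05 was found for 8 of the 116, against 9.84% of all genes, and DESeq2 called none. In monocytes 4 passed, all lower in RM CrePos, against 0.421% of all genes, and DESeq2 called 14, of which 1 was higher, where it called 1093 genes in all. Cebpb, a factor required for the expression of Arg1 in macrophages, and also one of the nonclassical monocyte markers above, had 273 ± 96.7 CPM in RM CrePos and 862 ± 156 CPM in RM CreNeg (edgeR, BH-adjusted p = 0.0325). Lgals3, the galectin of phagocytes, had 55.9 ± 17.8 CPM in RM CrePos and 168 ± 24.5 CPM in RM CreNeg (edgeR, BH-adjusted p = 0.0282). Tgfbi had 101 ± 38.8 CPM in RM CrePos and 363 ± 115 CPM in RM CreNeg, and Tgfb1, which encodes TGF-β1, 93.0 ± 11.9 CPM in RM CrePos and 202 ± 12.3 CPM in RM CreNeg (edgeR, BH-adjusted p = 0.0261 and 0.0493). No RM CrePos library overlapped RM CreNeg for these 4 genes, and 11.4% of all genes tested were lower without overlap. The 4 were picked by the test on the same libraries, so this adds no support. With lane as a covariate none passed (edgeR, BH-adjusted p between 0.0874 and 0.130), while the log2 fold change was -1.66 for Cebpb, -1.58 for Lgals3, -1.58 for Tgfbi and -1.11 for Tgfb1, against -1.66, -1.59, -1.85 and -1.12 without it. With the 6 RM libraries alone, or with a minimum count of 30, none passed either. No pathway gene passed without IM648, IM659 or RM657, 1 passed without IM649 or IM660, 3 without IM650, and 8 without RM650 or RM661. Cebpb was also lost without RM648 (edgeR, BH-adjusted p = 0.0859). Tgfb1 was lost without any one of 10 libraries, all but RM650 and RM661 (0.0513 to 0.157), with RLE factors (0.0793) and with no filter (0.0743).

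**Figure D5:**
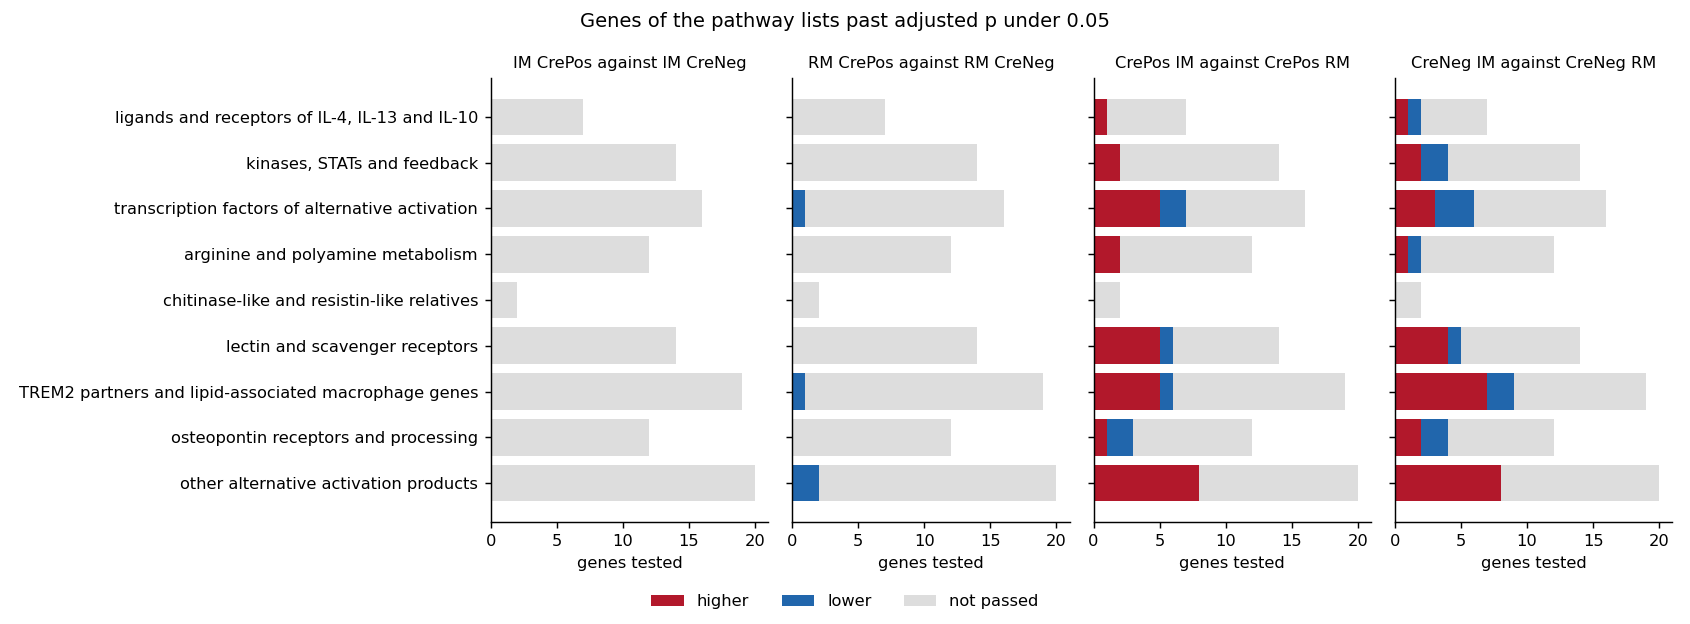
Number of tested genes in each of 9 pathway lists, split by whether they were higher (red), lower (blue) or did not pass (grey) at an adjusted p under 0.05, in 4 comparisons. Between genotypes 4 genes passed, all lower in RM CrePos, whereas between cell types genes passed in 8 of the 9 lists.

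The pattern over the 12 libraries was compared with that of other genes by the root mean square difference of log2 CPM after each gene was centred at its own mean. The 6040 genes compared had an average of 4 or more on that scale, which Chi3l3, Il4ra, Mrc1 and Spp1 reached. Nearest to Chi3l3 were Sepp1, a selenium carrier, at 0.57 and Ctsd, a lysosomal protease, at 0.58, where the median gene lay at 1.74. Sepp1 had 1073 ± 180 CPM in IM CrePos, 2349 ± 230 CPM in IM CreNeg, 247 ± 84.7 CPM in RM CrePos and 330 ± 119 CPM in RM CreNeg. Nearest to Il4ra were Kif1c, a kinesin, at 0.22 and App, the amyloid precursor, at 0.23, with a median of 0.83. Nearest to Mrc1 were B4galt6, a galactosyltransferase, at 0.59 and Dab2, an endocytic adaptor, at 0.63, with a median of 2.45, and nearest to Spp1 were Fgl2 at 0.61 and Gadd45b, a stress response gene, at 0.63, with a median of 2.48. The libraries share their cell type and depth across all genes, so these distances are a description and carry no test.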

How the data were processed

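RNA from 12 libraries of about 250 sorted cells, 3 in each of 4 groups, was measured by total RNA sequencing. Reads were trimmed, aligned and counted by the authors with tools that the submitters' processing notes list as cutadapt (1.12), TopHat2 (2.1.1) and HTSeq (0.6.0), on mm10, that is GRCm38. Neither the annotation nor the strand setting is stated. The deposited values are raw counts per gene symbol. The 5 summary rows, 45.0 to 74.1% of each file's total, name no gene and were left out of library sizes.

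Counts were tested with edgeR 4.0.16 in R 4.3.3: a robust quasi-likelihood fit of 4 group means over 12 libraries, TMM factors, filterByExpr with a minimum count of 10, Benjamini-Hochberg (BH) adjustment over 14254 genes and a threshold of 0.05. Levels are counts relative to the TMM-scaled library size (CPM), and log2 CPM used a prior count of 2. The standard error of a log2 fold change was its size divided by the root of the F statistic. DESeq2 1.42.0 and limma 3.58.1 served as alternatives, and figures were drawn with matplotlib 3.10.9 in Python 3.11.15. The edgeR step was run on simulated counts with the same spread for all genes and large changes, which does not show its accuracy for these libraries. Locations and promoters come from RefSeq (GRCm38.p6), and exon lengths and overlaps from GENCODE M21. Limits at 3 counts cover counting error only.

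The genes and lists were chosen with earlier results of these data known. The rule names all 10 genes, Hif1a, Cx3cr1, each pathway gene past the threshold between genotypes, the 2 with the smallest adjusted p per list between cell types, and the 2 nearest genes by pattern. Stat6, Arg2, Tyrobp, Chi3l1, the Cd209 genes and genes with few or no counts were named after their values were seen. A gene that the rule names is not reported here.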

Additional observations from a re-analysis of the deposited data

Results flagged for a closer look

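The share of reads outside annotated exons, which is in the summary rows of the files and entered the tests above as a covariate in an alternative fit, averaged 65.2% in IM CrePos, against 42.0% in IM CreNeg, with no overlap between the libraries.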

How the results depend on the processing

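Counts of genes called were less stable than the direction of the 10 genes between cell types. With DESeq2, genes called were 440 (IM CrePos against IM CreNeg, 41 in the main test), 1093 (RM CrePos against RM CreNeg, 60), 108 (difference of effects, 0), 1318 (CrePos IM against RM, 652) and 1915 (CreNeg IM against RM, 1066). Without the filter, 77 were called between genotypes in IM and 153 in RM, and with a minimum count of 30, 0 and 11. With only the 6 libraries compared, 950 were called in IM, 0 in RM, 228 between CrePos cells and 2015 between CreNeg cells. Lane as a covariate left 0 in IM and 3 in RM, and was not run between cell types, which lane cannot be told apart from. The non-exonic share as a covariate left 0 in IM, 351 in RM and 28 between CreNeg cells. RLE factors split the 59 calls in RM into 28 higher and 31 lower, against 12 and 48, and moved the median change over all genes tested to 0.04 on the log2 scale, against -0.10.

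Libraries of 1 label number in both cell types did not deviate together (r between -0.0654 and 0.0809), and the genotypes share no number, so the numbers were not taken to pair samples. With the number as a replicate block in limma, 174, 189 and 2 genes were called in IM, in RM and for the difference, 856 between CrePos and 1647 between CreNeg cells. With the block in edgeR, 397 and 289 were called between CrePos and CreNeg cells and 0 for the difference, with 4 and 2 of the 10 genes among them. Il10 between CreNeg cells was lost in both (adjusted p = 0.0736 in limma and 0.124 in edgeR).

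Leaving out 1 library gave 0 to 234 genes called in IM, 4 to 570 in RM, 0 to 34 for the difference, 346 to 1709 between CrePos and 504 to 1525 between CreNeg cells. Of pathway genes, 0 to 8 were called in RM, 22 to 43 between CrePos and 21 to 45 between CreNeg cells.

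Log2 fold changes that turned were all short of the threshold. They turned in IM to -0.010 for Mrc1 with no filter, to -0.10 for Il10 with lane, and with the non-exonic share to 7.40 for Arg1, 1.89 for Retnla, -0.36 for Il10, 4.36 for Mgl2, 0.94 for Clec10a, 1.83 for Spp1 and 0.88 for Trem2. Clec10a in RM turned to 0.98 with lane, the difference to -0.032 for Mgl2 and -1.35 for Clec10a with lane, -1.12 for Clec10a with the edgeR block and 0.22 for Il4ra with the non-exonic share. Arg1 turned to -4.65 between CreNeg cells with the non-exonic share and to 0.19 in IM with the limma block. Without 1 library, values in IM ranged from -0.89 to 1.24 for Arg1, -0.61 to 0.72 for Retnla, -0.30 to 0.69 for Il10, -0.0096 to 0.29 for Il4ra and -0.14 to 0.18 for Mrc1. Clec10a in RM ranged from -2.09 to 0.10, the difference from -0.92 to 1.36 for Clec10a, -0.028 to 1.55 for Retnla and -0.42 to 1.36 for Spp1, and Arg1 between CreNeg cells from -0.89 to 1.44. The causes were not tested. Arg1 had 130, 23 and 23 counts in the IM CreNeg libraries, a spread that the depth of those libraries does not follow.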
